A study of Mus musculus with 31 samples.

Results

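Collagen genes were followed in RNA sequencing data from the livers of 31 mouse pups. Members were all genes whose symbol has the form of a collagen alpha chain (Col, a type number, a, a chain number). The deposited counts cover 43629 genes, of which 44 had such a symbol, and the 39 with a mean of at least 0.5 CPM (counts per 1000000 counts of a library) over all libraries are described. The 5 below that minimum were Col9a1, Col26a1, Col22a1, Col2a1 and Col19a1. Next to the limit, Col10a1 (0.505 CPM) and Col28a1 (0.574 CPM) were just inside and Col9a1 (0.466 CPM) was just outside.

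All pups were C57Bl/6J and Dio1KO/Dio2KO, lacking the type 1 and type 2 deiodinases that convert thyroxine (T4) to triiodothyronine (T3), so no group here had an intact Dio1 or Dio2. Control pups were also Pax8Het and received vehicle (n = 5). Pax8 is a transcription factor that the thyroid needs to form, and the other groups were Pax8KO and received vehicle (n = 5, called vehicle), T4 (n = 8), T3 (n = 6) or T3 together with T4 (n = 7, called T3+T4). Injections were given every other day from postnatal day 2 and livers were taken on postnatal day 14. Each library came from 1 pup, identified by an animal number. Hormone doses and the deleted exons are not given in the sources used here. The design asks what each hormone does in the liver of Pax8KO pups. These pups lack the factor that the thyroid needs to form, and cannot convert T4 through these enzymes.

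Collagens are triple-helical proteins of the extracellular matrix. Fibrillar collagens (types I, III and V) form the fibres of portal tracts and vessel walls, collagen IV forms the sheet of basement membranes, and other classes decorate fibrils, form beaded filaments or span the cell membrane. In liver most collagen is made by stellate cells, portal fibroblasts and vascular cells, while collagen XVIII, the precursor of endostatin, is also made by hepatocytes. The 6 collagen IV genes lie as 3 head-to-head pairs, each pair sharing a short stretch of DNA from which both genes are transcribed in opposite directions. Col4a3 and Col4a4, one such pair, encode chains that assemble with the Col4a5 chain into the network of the glomerular basement membrane in the kidney. Thyroid hormone receptors are nuclear receptors that bind DNA at copies of the hexamer AGGTCA, often as a direct repeat with a short spacer.

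The DNA between the transcription starts of Col4a4 and Col4a3 is shown because these 2 genes moved most among the collagens, and the stretch before Col5a3 because it was the tested member that moved furthest in the opposite direction. Both are reference sequence from the RefSeq promoter table (build GRCm38.p6), printed on the minus strand, with AGGTCA in capitals.
Col4a4 to Col4a3, chr1:82586850-82586975: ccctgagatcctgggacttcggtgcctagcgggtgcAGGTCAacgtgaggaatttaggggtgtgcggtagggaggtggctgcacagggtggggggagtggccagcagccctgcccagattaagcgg
Col5a3 upstream, chr9:20815068-20815317: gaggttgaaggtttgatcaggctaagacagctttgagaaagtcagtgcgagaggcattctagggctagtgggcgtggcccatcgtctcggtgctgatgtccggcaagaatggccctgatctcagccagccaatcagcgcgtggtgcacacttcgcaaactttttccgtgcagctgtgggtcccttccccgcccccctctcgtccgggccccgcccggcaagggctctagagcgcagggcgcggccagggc

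Col4a4 (ENSMUSG00000067158, chr1:82448423-82586849, minus strand) and Col4a3 (ENSMUSG00000079465, chr1:82586921-82722059, plus strand) are given in mm10 coordinates of GENCODE M21. The protein-coding transcript of Col4a3 starts at 82586976, which leaves 126 bases between the coding transcripts of the pair, but a Col4a3 transcript with a retained intron starts inside this stretch, at 82586921, so that its part from there on, the AGGTCA included, is exonic in that transcript. This interval has a GC content of 64.3% and 5 CpG dinucleotides. Its single AGGTCA, at 82586934 to 82586939, lies 85 bases from the Col4a4 start and 37 bases from the start of the Col4a3 coding transcript. The 250 bases before Col5a3 (ENSMUSG00000004098, chr9:20770050-20815067, minus strand) have a GC content of 62.8%, 17 CpG dinucleotides and no AGGTCA on either strand. Windows of 300 bases (250 before and 50 after a start) were searched for AGGTCA on both strands, and 16.3% of 32851 such windows in the table held it. Of the 33 described collagen genes with a window, 7 held it: Col4a4, Col20a1, Col11a1, Col24a1, Col6a5, Col7a1 and Col23a1. A direct repeat with a 4-base spacer, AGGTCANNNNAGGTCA, was in 0.0152% of all windows and in 0 of the collagen windows. The other 6 described members, Col4a3, Col12a1, Col14a1, Col1a1, Col5a2 and Col9a3, had no window of their own and were not searched.

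Library totals ran from 4383769 to 7158919 counts, and collagen genes took between 0.173% and 0.308% of them. Totals were 4955859 to 5967157 in control, 4901954 to 5625282 in vehicle, 4383769 to 6116826 after T4, 5237993 to 6580814 after T3 and 5531724 to 7158919 after T3+T4. Mean counts of Pax8 were 5.8 in control and 8.8 in vehicle, too low to check the genotype. Dio1 averaged 892 counts in control, 65 in vehicle, 185 after T4, 834 after T3 and 1190 after T3+T4, and the table does not tell reads of an inactive transcript from others. Hepatocyte markers were abundant in every library (summed 8-gene level of 4442 to 6973 CPM). Pancreatic acinar genes averaged 5 CPM or more in 1 control, 2 vehicle and 3 T3+T4 libraries, and skeletal muscle genes did so in 3 T4, 2 T3 and 2 T3+T4 libraries. The animals numbered 54 to 85 were 1 of 5 control, 2 of 5 vehicle, 5 of 8 T4, all 6 T3 and all 7 T3+T4 pups, so animal number and group are largely confounded. Of the 20 pups labelled for sex, 4 had sex-linked expression that differed from the label, and males by expression were 1, 3, 6, 1 and 5 in control, vehicle, T4, T3 and T3+T4. Changes of the collagen genes were also computed without the libraries with raised acinar or muscle genes (19 libraries kept), and within animals 54 to 85.

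Per kilobase of exon, Col18a1 was the highest collagen gene of these livers, at 114 CPM per kilobase over all libraries. It took 32.5% of the summed collagen CPM. Col4a1 (32.5 CPM per kilobase) and Col4a2 (28.2), the chains of the common basement membrane network, followed together with Col14a1 (30.3), which binds to fibril surfaces. Col3a1 (20.7), a fibrillar collagen of soft tissue, and Col6a1 (16.03), a subunit of beaded filaments, came next, then Col5a1 (13.6), Col1a1 (10.8) and Col1a2 (9.92). The lowest was Col7a1, an anchoring fibril collagen of skin, at 0.0627 CPM per kilobase.

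The 39 genes summed to 2572 ± 45.1 CPM in the 5 control livers (mean ± SD here and below), 2467 ± 252 in the 5 vehicle livers, 2563 ± 320 in the 8 T4 livers, 2321 ± 370 in the 6 T3 livers and 2428 ± 120 in the 7 T3+T4 livers. Groups overlapped in this total. Transmembrane collagens differed most between group means by class, at 21.9 ± 4.71 CPM in control (n = 5) and 47.7 ± 10.6 in vehicle (n = 5). All 5 vehicle livers were above all 5 control livers for that class sum. The ratio of the highest to the lowest group mean was at least 2 for 7 of the 33 members tested, under 1.5 for 15, and had a median of 1.55. Col4a3 (22.2) and Col4a4 (9.41) had the largest ratios, then Col5a3 (5.36), Col25a1 (5.04) and Col15a1 (3.7). Col5a1 (1.08) and Col6a3 (1.07) barely differed between group means.

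Changes were tested with edgeR's quasi-likelihood test over 17057 genes that passed a filter on low counts, with Benjamini-Hochberg adjusted p-values over all of them, and a gene is called where the adjusted p was under 0.05. Of the 39 members 33 passed the filter. Col9a3, Col9a2, Col7a1, Col6a4, Col28a1 and Col10a1 did not, with group means of 0.332 to 1.14 CPM. In vehicle against control 7 of 33 members (21.2%) were called, beside 9.63% of all genes tested, 4 of them higher and 3 lower (4.92% and 4.71% of all genes). T4 against vehicle called 0 members, beside 0.41% of all genes. With DESeq2 the count was also 0, beside 237 of the 17057 genes. In edgeR 3 members had an unadjusted p under 0.05, beside 2167 of the 17057 genes. T3 against vehicle called 6 (18.2%), beside 6.77% of all genes, 3 in each direction (3.53% of all genes higher, 3.24% lower). T3+T4 against vehicle called 8 (24.2%), beside 15.8% of all genes, 3 higher and 5 lower (7.33% and 8.45% of all genes). The median log2 fold change of the 33 members was 0.15, 0.16, 0.01 and 0.00 in these 4 comparisons, and that of all genes tested lay between -0.003 and 0.01. The 3 hormone comparisons share the 5 vehicle libraries, and vehicle against control uses the same 5, so their values are set side by side and no overlap between them is read as a result. In these whole-liver samples, fewer cells of a type and less RNA per cell cannot be told apart.

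**Figure D1:**
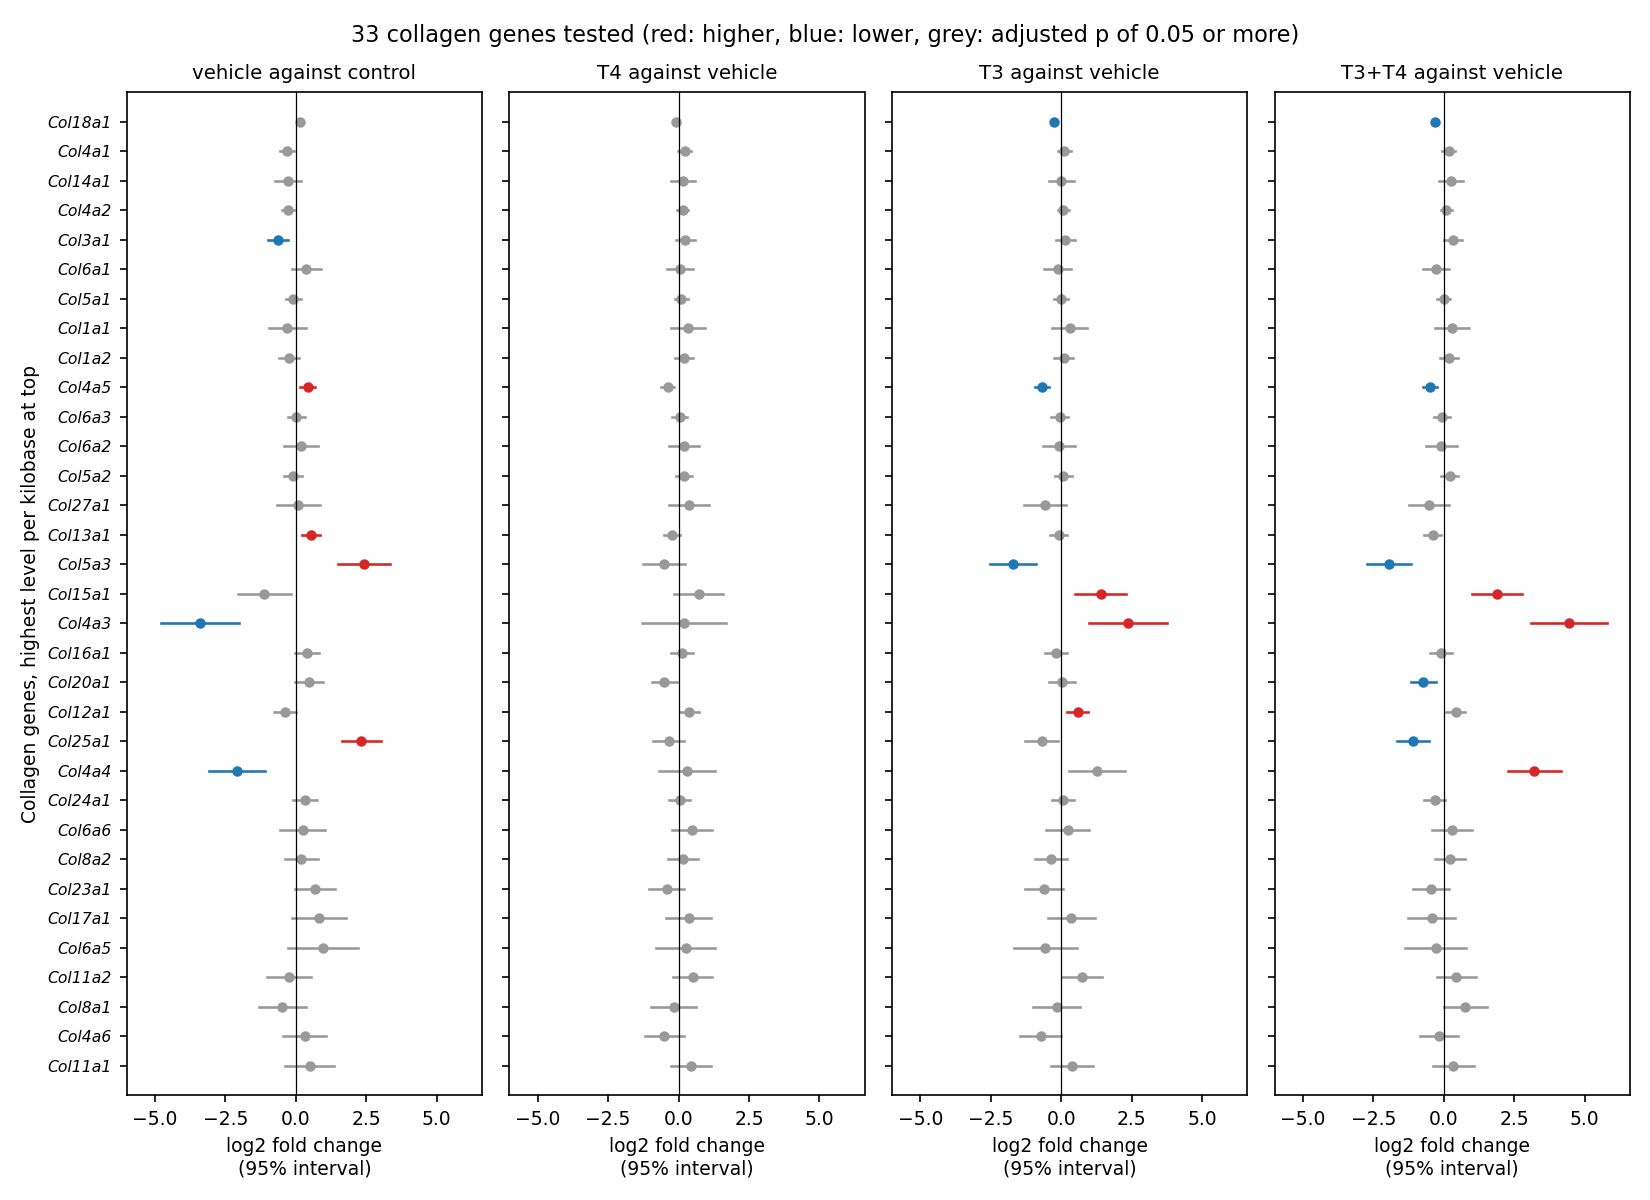
Log2 fold change with its 95% interval (horizontal axis) of the 33 tested collagen genes, the highest per kilobase at the top, in 1 panel for each of 4 comparisons. Points are red where edgeR called a gene higher, blue where lower and grey where not called. Col4a3 and Col4a4 lie farthest left in vehicle against control (-3.41 and -2.08) and farthest right after T3+T4 (4.45 and 3.22), and every point is grey after T4.

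Among the basement membrane collagens, Col4a3 and Col4a4 were low in the livers of vehicle pups and high after T3+T4. Col4a3 was at 18.3, 8.8, 56.9, 33.1 and 13.9 CPM in the control livers (animals 42, 47, 49, 50 and 59). It was at 2.19, 1.62, 2.33, 3.87 and 2.1 CPM in the vehicle livers (animals 37, 38, 55, 67 and 2019). Every control liver was above every vehicle liver, and control animal 49 was the highest of its group. After T4 the level ran from 1.84 to 5.3 CPM (median 2.51), which overlapped vehicle. After T3 it ran from 2.42 to 22.1 CPM (median 13.2), where only animal 65 was within the range of vehicle. After T3+T4 it ran from 15.7 to 122 CPM (median 23.3), with all 7 livers above every vehicle and every T4 liver, and 3 of the 7 (animals 72, 84 and 85) at 69.1 CPM or more.

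Col4a4 had the same order of group means. It was at 9.17, 7.28, 23.5, 13.6 and 6.86 CPM in control and at 2.19, 2.22, 2.97, 3.13 and 3.63 CPM in vehicle, in the order of animals above. No control liver overlapped a vehicle liver. It ran from 2.27 to 4.08 CPM after T4 (median 3.67), from 4.23 to 10.3 after T3 (median 6.28) and from 9.51 to 59.1 after T3+T4 (median 14.2). The T3 and T3+T4 livers were all above the vehicle livers, while T4 overlapped vehicle. Group means of Col4a3 were 26.2 ± 19.4, 2.42 ± 0.852, 2.79 ± 1.11, 12.8 ± 8.09 and 53.8 ± 45.2 CPM in control, vehicle, T4, T3 and T3+T4. Those of Col4a4 were 12.1 ± 6.92, 2.83 ± 0.617, 3.46 ± 0.551, 6.87 ± 2.50 and 26.6 ± 20.8 CPM. After subtraction of 1 per library (1 is the lowest value in the table), the 5 vehicle libraries held 58 reads of Col4a3 and 68 of Col4a4, so ratios within that group rest on few reads.

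**Figure D2:**
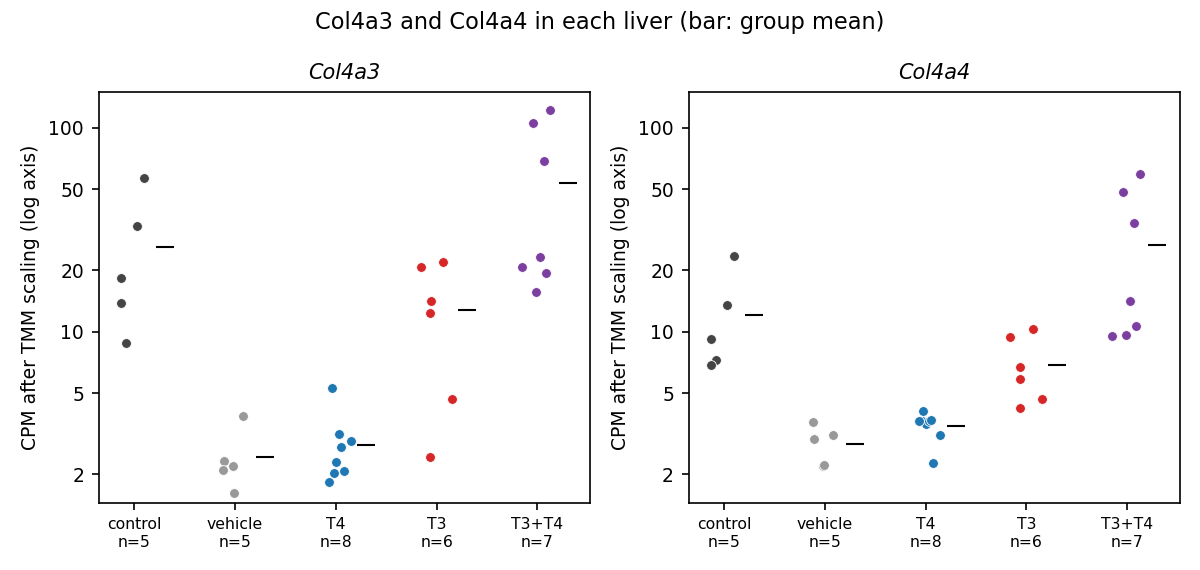
Level of Col4a3 (left) and Col4a4 (right) in each liver, in CPM on a log axis, with 1 point per pup and a bar beside each group at its mean. Vehicle and T4 livers sit at or below 5.3 CPM for Col4a3 and 4.08 CPM for Col4a4, below all 7 T3+T4 livers, and the T3 livers lie between with some overlap.

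In vehicle against control, Col4a3 fell 10.6-fold (log2 fold change -3.41, SE 0.68, edgeR adjusted p 0.00176) and Col4a4 4.23-fold (-2.08, SE 0.49, adjusted p 0.00697). After T4 neither was called against vehicle: the log2 fold change of Col4a3 was 0.20 with a 95% interval from -1.31 to 1.70 (adjusted p 0.949), and that of Col4a4 was 0.29, from -0.70 to 1.28 (adjusted p 0.859). After T3, Col4a3 rose 5.18-fold (log2 2.37, SE 0.67, adjusted p 0.0308), and the log2 fold change of Col4a4, 1.27 (SE 0.48), was not called (adjusted p 0.109). T3+T4 raised Col4a3 21.9-fold (log2 4.45, SE 0.66, adjusted p 3.84e-05) and Col4a4 9.32-fold (log2 3.22, SE 0.46, adjusted p 2.75e-05). The rises after T3+T4 were called in all 24 other settings tried for that comparison. They were 4.75 (adjusted p 0.00348) and 3.68 (0.00134) on the log2 scale without the libraries with raised acinar or muscle genes, and 4.10 (0.0265) and 3.12 (0.0233) within animals 54 to 85. The call of Col4a3 after T3 was lost in 9 of 23 other settings. It was not made when any 1 of vehicle animals 37, 38, 55 or 2019 or T3 animal 60 was left out (adjusted p 0.0588 to 0.0732), without the raised libraries (log2 2.22, adjusted p 0.206) or within animals 54 to 85 (2.02, 0.373). Within animals 54 to 85, which leave 1 control and 2 vehicle livers, the log2 difference of vehicle from control was -2.16 for Col4a3 and -1.18 for Col4a4. With 1 control liver, calls in that comparison are not reported here.

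Between hormone groups, T3+T4 was above T4 by 4.26 (SE 0.53, adjusted p 1.59e-05) for Col4a3 and by 2.93 (SE 0.38, adjusted p 2.39e-05) for Col4a4 on the log2 scale, with no overlap of livers. In that comparison 5 of 33 members were called, beside 8.61% of all genes. T3+T4 against T3 called 0 members, beside 0.0117% of all genes. There the log2 fold change was 2.08 for Col4a3 (SE 0.50, adjusted p 0.0638) and 1.95 for Col4a4 (SE 0.38, adjusted p 0.0502). In this comparison 8 members had an unadjusted p under 0.05, beside 2165 of 17057 genes. DESeq2 called 2 members, but its count over all genes was not computed there, so the 2 cannot be set against a share. T4 against T3 called 0 as well, beside 0.551% of all genes. The difference of T4 from T3 in Col4a3, -2.18 on the log2 scale (SE 0.56, adjusted p 0.0638), missed the threshold. Between T4 and T3 8 members had an unadjusted p under 0.05, beside 2422 of 17057 genes. DESeq2 called 2 members there, beside 234 of the 17057 genes. The interaction of T3 and T4, which tests whether their joint change differs from the sum of the separate ones on the log2 scale, was 1.88 for Col4a3 (SE 0.90, adjusted p 0.468) and 1.66 for Col4a4 (SE 0.62, adjusted p 0.33). Neither was called, beside 0.135% of all genes. Against control, Col4a3 after T4 had fallen by 3.22 (SE 0.56, adjusted p 0.00156) and Col4a4 by 1.79 (SE 0.41, adjusted p 0.015), the latter not called without control animal 49 (adjusted p 0.1). T4 against control called 4 members, beside 3.54% of all genes, and T3 against control called 1, beside 0.211%. Within animals 54 to 85 both comparisons rest on 1 control liver, and their calls are not reported here. T3+T4 against control called 0 members, beside 0% of all genes, with differences of 1.04 for Col4a3 (SE 0.50, adjusted p 0.681) and 1.14 for Col4a4 (adjusted p 0.48). In that comparison 6 members had an unadjusted p under 0.05, beside 1226 of 17057 genes. DESeq2 called 1 member, and its count over all genes was not computed there either.

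Col4a3 with Col4a4, and Col4a1 with Col4a2, also varied together from pup to pup. Correlations between unpaired collagen genes were not computed, so whether this is particular to the pairs was not tested. Deviations of log2(CPM + 0.5) from the group mean were correlated over the 31 livers within each collagen IV pair, with p-values from 100000 permutations within groups and adjustment over the 3 pairs. Col4a3 and Col4a4 had a Pearson r of 0.882 and a Spearman rho of 0.848 (permutation p 1e-05 for each, the smallest these permutations can give, adjusted 1.5e-05 and 3e-05). Leaving out the 2 livers farthest from the median gave r = 0.886. Col4a1 and Col4a2, whose starts overlap by 22 bases, had r = 0.855 and rho = 0.810 (permutation p 1e-05 and 2e-05, adjusted 1.5e-05 and 3e-05), and r = 0.798 without 2 livers. Col4a5 and Col4a6, 1308 bases apart, had r = -0.066 and rho = -0.036 (permutation p 0.743 and 0.856), and 0.039 without 2 livers. Col4a6 was the lowest collagen IV gene, with group means of 1.15 to 1.90 CPM, which limits that estimate. Whether reads were counted by strand is not given in the sources used here, so reads of overlapping genes cannot be told apart. Exons of 12 described members overlap another gene. In the collagen IV pairs this touches the 22 shared bases of Col4a1 and Col4a2, further bases that Col4a2 shares with Gm15419, and 563 exonic bases that Col4a3 shares with C430014B12Rik. Among the other called members, Col3a1 shares 141, Col20a1 79 and Col15a1 14 exonic bases with other genes.

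**Figure D3:**
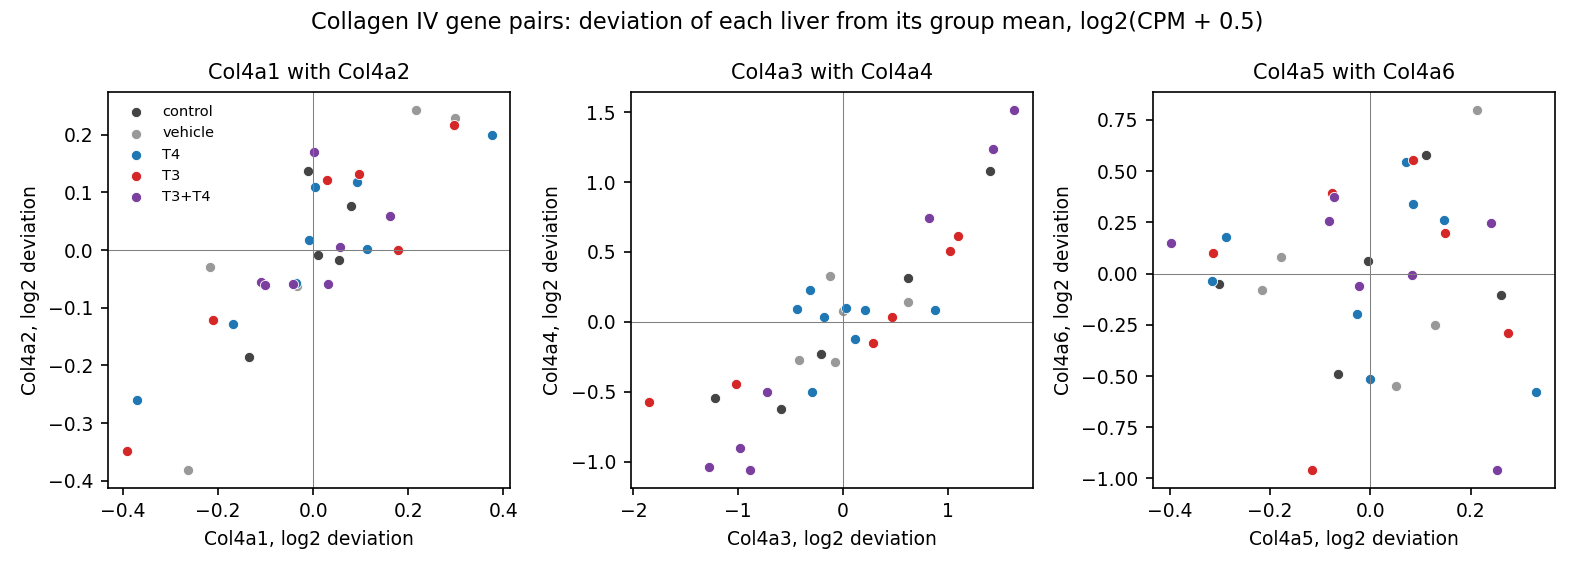
Deviation from the group mean of log2(CPM + 0.5) of the 2 genes of each head-to-head collagen IV pair, 1 point per liver, coloured by group. Points of Col4a1 with Col4a2 (r = 0.855) and of Col4a3 with Col4a4 (r = 0.882) follow a rising line, and those of Col4a5 with Col4a6 (r = -0.066) do not.

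The ratio of Col4a3 to Col4a4 within a liver, in reads per exonic base after subtraction of 1, also differed between group means. It averaged 2.17 ± 0.535 in control and 2.07 ± 0.256 after T3+T4, with 1.81 ± 0.779 after T3. It was 0.910 ± 0.291 in vehicle and 0.860 ± 0.344 after T4. These ratios were not tested. Markers of kidney, where both chains are abundant, were at or near 0: 3 to 5 of 7 such genes had no read in a group, among them the podocyte gene Nphs1 in 3 groups, and their summed level was 1.32 to 2.74 CPM in every library. Lung markers moved alongside the pair in the opposite direction. Both tested ones of 5, Ager and Sftpa1, were higher in vehicle than in control and lower after T3+T4 than in vehicle. Of all genes, 4.92% were called higher and 8.45% lower in these 2 comparisons. Leaving out 1 library ended the calls of Ager for 4 of 10 and 4 of 12 libraries, and of Sftpa1 for 1 of 10 and 0 of 12. Without the raised libraries neither was called after T3+T4 (adjusted p 0.083 and 0.143). The summed level of the 5 was 4.26 to 8.77 CPM in control, 11.1 to 25.9 in vehicle and 4.59 to 11.96 after T3+T4. Sftpb and Scgb1a1 had no read in control and Sftpc had none after T3+T4. Their part in the result was not tested.

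The other collagen IV genes moved less. Col4a5, the X-linked partner chain of Col4a3 and Col4a4 (ENSMUSG00000031274, chrX:141475385-141689234, plus strand), averaged 73.8 ± 9.63 CPM in vehicle and 55.3 ± 7.96 in control (5 livers each). The hormone groups averaged 56.7 ± 8.43 CPM (T4, 8 livers), 46.2 ± 6.74 (T3, 6 livers) and 53.0 ± 7.99 (T3+T4, 7 livers). Vehicle livers (63.0 to 85.0 CPM) lay above all T3 livers (36.8 to 55.5) and all T3+T4 livers (39.7 to 62.6), and overlapped control (44.4 to 65.8). Col4a5 thus went in the direction opposite to Col4a3 and Col4a4. It fell after T3 by 0.68 on the log2 scale (SE 0.12, adjusted p 0.00138) and after T3+T4 by 0.48 (SE 0.12, adjusted p 0.00631). Its rise in vehicle against control was 0.41 (SE 0.13, adjusted p 0.0405), and this call was lost without any 1 of control animals 42, 49 or 50 or vehicle animals 37, 38 or 55 (adjusted p 0.0657 to 0.13), and without the raised libraries (log2 0.46, adjusted p 0.121). After T4 its log2 fold change, -0.38, was not called (adjusted p 0.125). Without the raised libraries the log2 fold change after T3+T4 was -0.38 (adjusted p 0.23) and after T3 it was -0.71 (0.0632), and within animals 54 to 85 they were -0.38 (0.204) and -0.58 (0.101). Col4a1 averaged 267 CPM in control and 216 in vehicle (log2 -0.31, SE 0.12, adjusted p 0.0969, not called), and Col4a2 averaged 209 and 171 CPM (log2 -0.29, SE 0.10, adjusted p 0.0693).

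Col5a3, a minor fibrillar collagen chain of type V that co-assembles with the major fibrils, rose where Col4a3 fell. It was at 13.8, 12, 7.11, 8.72 and 3.62 CPM in the control livers and at 63.3, 51.9, 48.2, 23.2 and 56.1 CPM in the vehicle livers. Every vehicle liver was above every control liver, vehicle animal 67 being the lowest. Levels ran from 10.8 to 54.2 CPM after T4 (median 31.5), from 2.93 to 26.5 after T3 (median 15.7) and from 10.1 to 17.7 after T3+T4 (median 12.01). All T3+T4 livers were below all vehicle livers, T3 overlapped vehicle only through the lowest vehicle liver, and T4 overlapped vehicle broadly. Col5a3 rose 5.33-fold in vehicle against control (log2 2.41, SE 0.45, adjusted p 0.00096) and fell 3.27-fold after T3 (log2 fold change -1.71, SE 0.40, adjusted p 0.0107) and 3.84-fold after T3+T4 (-1.94, SE 0.39, adjusted p 0.00107). After T4 its log2 fold change was -0.51 (adjusted p 0.603). Without the raised libraries these falls were -1.62 (adjusted p 0.231) after T3 and -1.76 (0.132) after T3+T4, and within animals 54 to 85 they were -1.25 (0.327) and -1.48 (0.139). The call in T4 against control (log2 1.90, adjusted p 0.0124) was lost without control animal 49 (0.0503) and without the raised libraries (log2 1.77, 0.163). T3+T4 was below T4 (log2 fold change -1.43, adjusted p 0.0126), which was not called without the raised libraries (-1.23, 0.377).

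Among the other fibrillar genes only Col3a1 was called against vehicle or control. Col3a1 (ENSMUSG00000026043, chr1:45311538-45349706, plus strand) averaged 259 ± 23.4 CPM in control (n = 5) and 167 ± 39.2 in vehicle (n = 5). The ranges, 219 to 277 and 117 to 219 CPM, met at their edge. It fell by 0.64 on the log2 scale (SE 0.17, adjusted p 0.0195), a call that was lost without control animal 50 (adjusted p 0.0507) or vehicle animal 38 (0.0694) and was not made without the raised libraries (log2 -0.73, adjusted p 0.106). In the hormone groups its means were 198 ± 40.0, 185 ± 48.2 and 209 ± 23.7 CPM after T4, T3 and T3+T4, none called against vehicle. Col1a1 averaged 73.1 CPM in control, 58.9 in vehicle and 71.7 after T3+T4, and Col1a2 132, 111 and 125 CPM. These 2 chains, which together form type I collagen, were called in none of the 10 group comparisons. Col5a1 had group means of 112 to 121 CPM. Col27a1 had group means from 39.7 CPM after T3 to 76.3 CPM after T4 (ratio 1.92), and T4 differed from T3 by a log2 of 0.93 that was not called (unadjusted p 0.00822, edgeR adjusted p 0.192). Of the 10 fibrillar members tested, Col5a3 and Col3a1 were the only ones called in vehicle against control, and Col5a3 was the only one called after T3 or after T3+T4.

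Col25a1, a transmembrane collagen best known from neurons, had the smallest adjusted p of any collagen gene in vehicle against control. It was at 2.75, 5.75, 2.37, 3.85 and 6.48 CPM in control livers and at 17.5, 22.4, 15.5, 37.4 and 14.1 CPM in vehicle livers. The groups did not overlap, and vehicle animal 67 was the highest. After T4 it ran from 8.96 to 26.6 CPM (median 16.6), after T3 from 8.51 to 17.7 (median 13.0) and after T3+T4 from 5.75 to 15.97 (median 9.40). The T4 and T3 livers were all above the control livers, and those after T3+T4 overlapped both control and vehicle. Col25a1 (ENSMUSG00000058897, chr3:130131501-130599877, plus strand) rose 5-fold in vehicle against control (log2 2.32, SE 0.33, adjusted p 4.64e-05) and fell after T3+T4 by 1.08 (SE 0.28, adjusted p 0.00783). The fall was not called without vehicle animal 67 (adjusted p 0.0599) or without the raised libraries (log2 -1.27, adjusted p 0.0815), and within animals 54 to 85 it was -1.38 (0.03). Against vehicle its log2 fold change was -0.35 after T4 (adjusted p 0.639) and -0.69 after T3 (0.148). It was above control after T4 (log2 1.98, adjusted p 0.000551) and after T3 (1.64, SE 0.33, adjusted p 0.0223), the latter not called without any 1 of control animals 42, 49 or 50 or T3 animal 64 (0.0514 to 0.0938) or without the raised libraries (log2 1.75, adjusted p 0.156). Col13a1, another transmembrane collagen, of cell adhesion sites, averaged 14.2 ± 2.85 CPM in control (n = 5) and 20.5 ± 2.23 in vehicle (n = 5). Its rise of 0.53 (SE 0.16, adjusted p 0.0336) was lost when any 1 of 7 libraries was left out (control 42, 49, 50 or 59, vehicle 38, 67 or 2019, adjusted p 0.0667 to 0.0821) and without the raised libraries (log2 0.61, adjusted p 0.081). The other transmembrane members, Col17a1 and Col23a1, had group means of 1.15 to 3.76 CPM and were not called.

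**Figure D4:**
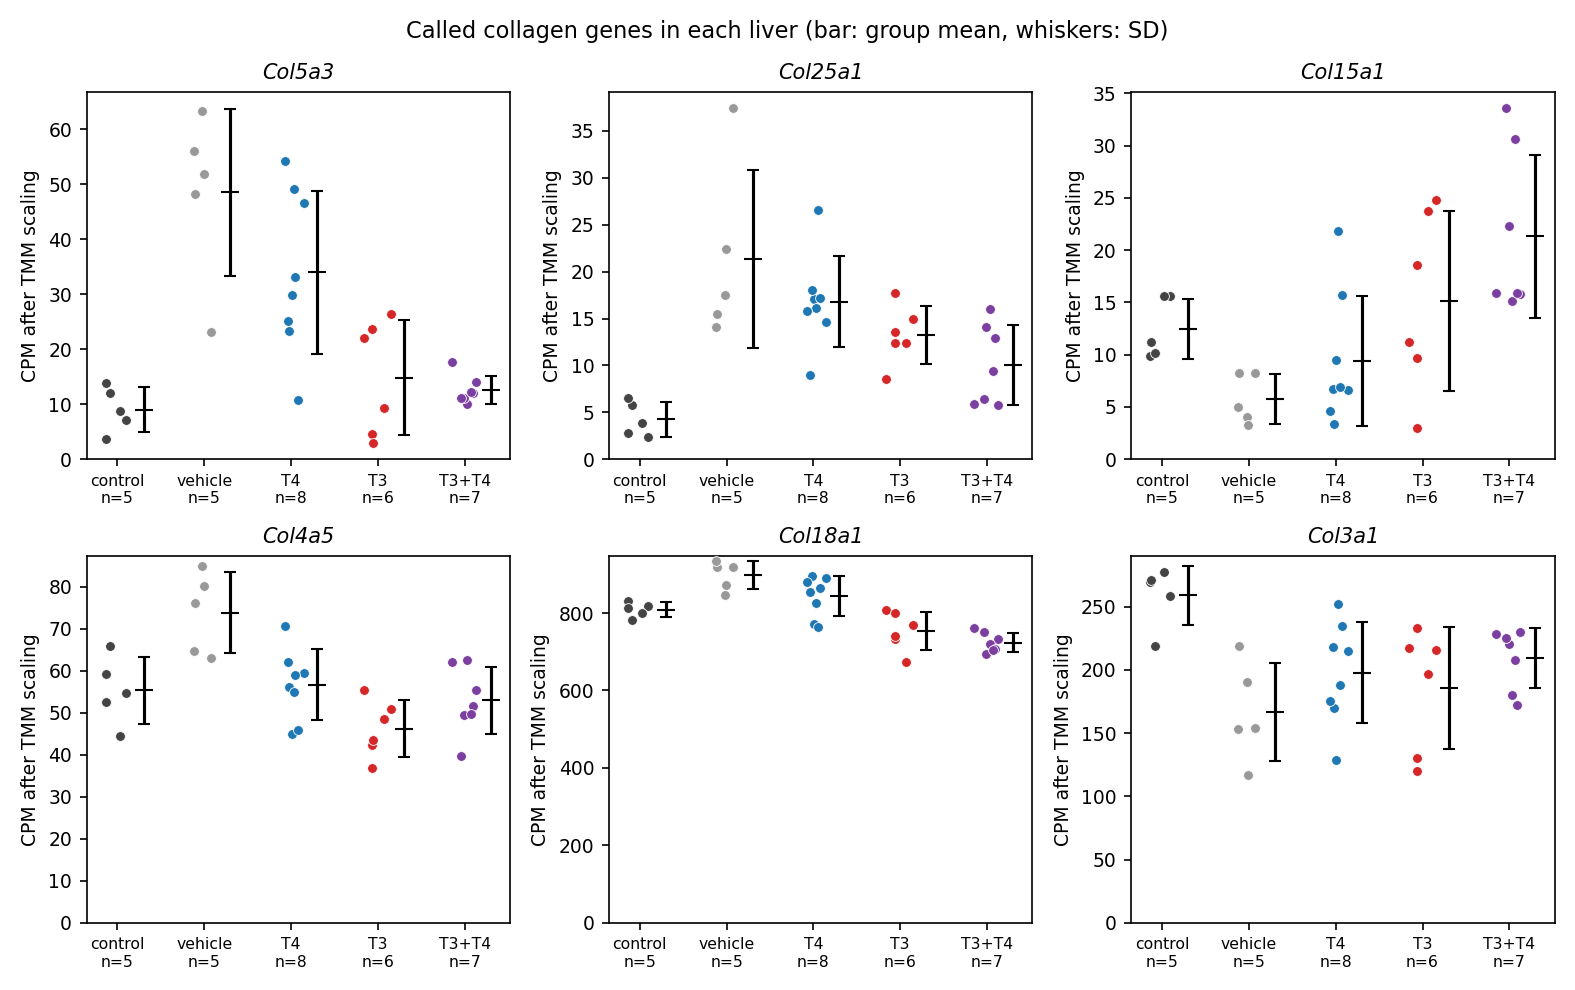
Level in each liver (vertical axes, CPM, 1 point per pup) of 6 further collagen genes called in at least 1 comparison, with the group mean and SD drawn beside the points. Col5a3 and Col25a1 are highest in the vehicle livers (23.2 to 63.3 and 14.1 to 37.4 CPM), and Col15a1 is highest after T3+T4 (15.1 to 33.6 CPM).

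The multiplexin genes Col18a1 and Col15a1 encode basement membrane collagens whose C-terminal fragments are endostatin and its relative. They moved in opposite directions. Col18a1 (ENSMUSG00000001435, chr10:77052178-77166548, minus strand) averaged 809 ± 18.8 CPM in control (781 to 831) and 899 ± 37.1 in vehicle (847 to 935), 5 livers each. It averaged 843 ± 51.8 CPM in the 8 T4 livers (763 to 896), 754 ± 49.7 in the 6 T3 livers (674 to 808) and 724 ± 25.7 in the 7 T3+T4 livers (693 to 762). No vehicle liver overlapped a control, T3 or T3+T4 liver. With a mean coefficient of variation within groups of 4.55%, beside 59.3% for Col4a3, its small changes were resolved: it fell after T3 by 0.25 on the log2 scale (SE 0.05, adjusted p 0.0022) and after T3+T4 by 0.31 (SE 0.05, adjusted p 4.57e-05). The fall after T3+T4 was called in all 24 other settings. That after T3 was -0.23 without the raised libraries (adjusted p 0.112) and -0.27 within animals 54 to 85 (0.0723). The difference of vehicle from control, 0.15, just missed the threshold (adjusted p 0.0548), and that of T4 from vehicle was -0.09 (adjusted p 0.407). T3+T4 was below T4 (log2 fold change -0.22, adjusted p 0.00151), which was not called without the raised libraries (-0.25, adjusted p 0.054).

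Some hepatocyte markers were lower too. After T4 0 of 8 were called against vehicle, beside 0.41% of all genes (3 with an unadjusted p under 0.05, beside 2167 of 17057 genes). After T3 2 of 8 were called lower (Alb and Apob), beside 3.24% of all genes. After T3+T4 4 of 8 were called lower (those and Asgr1 and Apoa1), beside 8.45%. The call of Alb ended when 1 library was left out for 7 of 11 libraries after T3 (adjusted p up to 0.0735) and for 5 of 12 after T3+T4 (up to 0.0754). No marker was at 0, and their summed level was 6427 to 6973 CPM in vehicle, 4918 to 6059 after T3 and 4442 to 6064 after T3+T4. Alb was no longer lower after T3+T4 with the library total as a covariate (log2 0.01, adjusted p 0.902). The part of these markers in the change of Col18a1 was not tested.

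Col15a1 (ENSMUSG00000028339, chr4:47208161-47313167, plus strand) ran from 9.91 to 15.6 CPM in control, from 3.23 to 8.29 in vehicle, from 3.34 to 21.8 after T4 (median 6.81), from 3.01 to 24.8 after T3 (median 14.9) and from 15.1 to 33.6 after T3+T4 (median 15.9). Vehicle livers were all below control and below T3+T4 livers, while T4 and T3 overlapped them. It rose 3.7-fold after T3+T4 (log2 1.89, SE 0.43, adjusted p 0.00343), with log2 fold changes of 1.63 without the raised libraries (adjusted p 0.107) and 1.37 within animals 54 to 85 (0.236). Its rise after T3 (log2 1.40, SE 0.44, adjusted p 0.05, just under the threshold) was lost without any 1 of vehicle animals 37, 38, 55 or 2019 or T3 animals 60, 64 or 65 (0.0652 to 0.122). It was 0.69 without the raised libraries (adjusted p 0.632) and 0.89 within animals 54 to 85 (0.566), under the value of all libraries by more than 1.5 times. Its difference of vehicle from control, -1.12 (SE 0.46), was not called (adjusted p 0.121). T3+T4 was above T4 by 1.17 (adjusted p 0.0339), a call lost without any 1 of T4 animals 43, 46, 69, 70 or 71 or T3+T4 animals 84 or 85 (0.0517 to 0.0866), without the raised libraries (log2 1.35, 0.186) and within animals 54 to 85 (0.93, 0.22).

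Among the fibril-associated collagens, Col12a1, which links fibrils to their surroundings, averaged 15.2 ± 2.96 CPM in vehicle (n = 5) and 22.7 ± 6.32 after T3 (n = 6). The rise of 0.58 (SE 0.18, adjusted p 0.0425) was lost without any 1 of vehicle animals 37, 38 or 67 or T3 animals 60, 65 or 68 (0.0777 to 0.124), without the raised libraries (log2 0.63, 0.279) and within animals 54 to 85 (0.54, 0.298). Col20a1 averaged 9.58 ± 1.83 CPM in vehicle (n = 5, 7.11 to 12.02) and 5.77 ± 1.16 after T3+T4 (n = 7, 3.96 to 6.99), with no overlap. It fell by 0.73 (SE 0.22, adjusted p 0.0246), and the call was lost without vehicle animal 38 (0.0574), vehicle animal 2019 (0.0727) or T3+T4 animal 77 (0.0543). Without the raised libraries it was -0.83 (adjusted p 0.083), and within animals 54 to 85 it was -0.66 (0.289). Col14a1, the most abundant of the class, averaged 234 CPM in control, 191 in vehicle, 213 after T4, 192 after T3 and 230 after T3+T4 and was called in no comparison. Of the 5 beaded filament members tested none was called in the 4 comparisons with vehicle. Col6a1 had group means of 59.3 to 79.4 CPM and Col6a3 of 69.7 to 74.5 CPM. The network collagens Col8a1 and Col8a2 had group means of 1.73 to 3.33 CPM and were not called in these comparisons.

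Of 29 tested of 30 listed genes that process and crosslink collagen, 0 were higher and 6 lower in vehicle against control (median log2 fold change -0.20). For this and the following lists, 4.92% of all genes were called higher and 4.71% lower in that comparison. After T3 the shares were 3.53% and 3.24% of all genes, and after T3+T4 7.33% and 8.45%. Adamts2, which removes the N-terminal propeptide of procollagens, fell by 0.83 (SE 0.12, adjusted p 3.59e-05), from 86.1 to 48.5 CPM. Pxdn, the peroxidase that crosslinks collagen IV, fell by 0.61 (SE 0.09, adjusted p 6.27e-05), from 131 to 85.7 CPM. Loxl1, a lysyl oxidase of elastic and collagen fibres, fell by 1.20 (SE 0.23, adjusted p 0.00137), from 14.1 to 6.11 CPM. Each of these 3 calls held when any 1 library was left out. After T3+T4 6 of the 29 were higher than in vehicle and 2 lower (median 0.10). Adamts2 rose by 0.56 (adjusted p 0.000856), Loxl1 by 1.04 (0.00178) and Pxdn by 0.37 (0.00332), with means of 71.4, 12.5 and 110 CPM, and these calls too held when any 1 library was left out. Without the raised libraries Loxl1 (adjusted p 0.0691) and Pxdn (0.0979) were not called. After T3 3 were higher: P4ha2, a subunit of prolyl 4-hydroxylase (log2 0.83, adjusted p 0.0272), P3h1, a prolyl 3-hydroxylase (0.38, 0.0198), and Pxdn (0.27, 0.0498). Leaving out 1 library ended the call of P3h1 for 3 of 11 libraries (adjusted p up to 0.0698), of P4ha2 for 4 of 11 (up to 0.0769) and of Pxdn for 8 of 11 (up to 0.119), and none of the 3 was called without the raised libraries (0.391, 0.296 and 0.357).

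**Figure D5:**
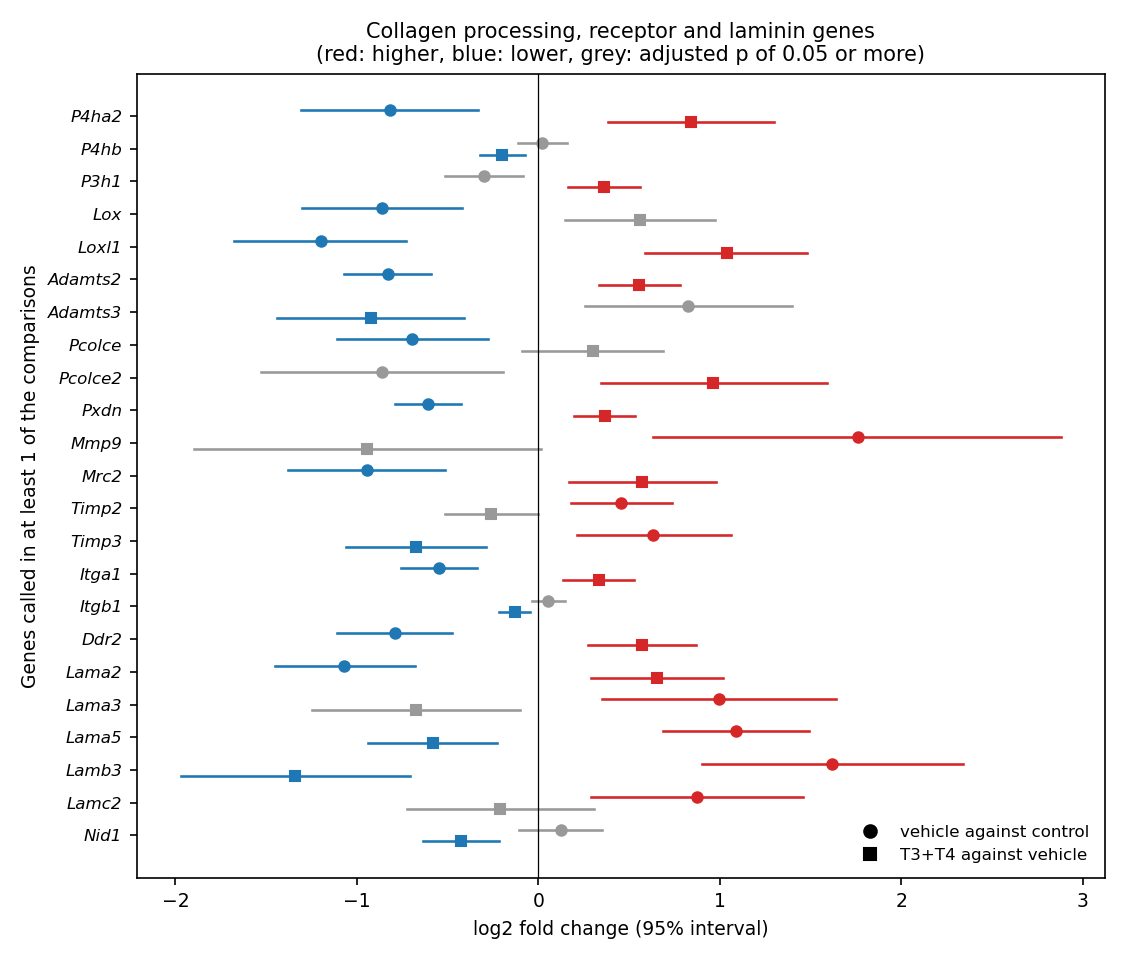
Log2 fold change with its 95% interval (horizontal axis) of the listed genes of collagen synthesis, breakdown, receptors and basement membrane that were called in at least 1 of 2 comparisons, vehicle against control (circles) and T3+T4 against vehicle (squares), in red where higher, blue where lower and grey where not called. Both comparisons use the vehicle libraries. Loxl1 (-1.20 and 1.04), Lama2 (-1.07 and 0.66) and Lamb3 (1.62 and -1.34) were called in both.

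Of 7 tested of 8 collagen receptor genes, the integrin subunit Itga1 (log2 -0.55, adjusted p 0.000975) and the collagen-binding kinase Ddr2 (-0.79, adjusted p 0.00158) fell in vehicle against control and 0 rose (4.71% of all genes lower and 4.92% higher, median log2 fold change of the list -0.09). After T3+T4 both rose, Ddr2 by 0.57 (adjusted p 0.00757) and Itga1 by 0.33 (0.0169), and Itgb1 fell by 0.13 (0.0319), with a list median of 0.33. Of these, Itga1 was not called without vehicle animal 38 (0.0572) and Itgb1 without any 1 of 5 libraries (up to 0.089), and Ddr2 (0.0592), Itga1 (0.0813) and Itgb1 (0.141) were not called without the raised libraries. After T3 only Itgb1 was called (-0.15, adjusted p 0.0394, up to 0.0994 with 1 library left out and 0.333 without the raised libraries, median 0.25). Of 12 tested of 17 breakdown genes, Mrc2, the receptor that takes up collagen fragments, fell in vehicle against control by 0.95 (adjusted p 0.00478), and 3 rose, beside 4.92% of all genes (median of the list 0.10). The 3 were the gelatinase Mmp9 (1.76, adjusted p 0.0406) and the inhibitors Timp2 (0.46, 0.0322) and Timp3 (0.64, 0.0496), whose calls ended when 1 library was left out for 9, 5 and 9 of 10 libraries (up to 0.0804, 0.129 and 0.126). After T3 0 of 12 were called, beside 6.77% of all genes (2 with an unadjusted p under 0.05, beside 3742 of 17057 genes, median of the list -0.18). After T3+T4 Timp3 fell by 0.68 (adjusted p 0.0144) and Mrc2 rose by 0.57 (0.0465, up to 0.105 with 1 library left out, median of the list -0.09). None of these breakdown genes was called without the raised libraries: in vehicle against control the adjusted p was 0.0535 for Mrc2, 0.0679 for Mmp9, 0.0559 for Timp2 and 0.147 for Timp3, and after T3+T4 it was 0.157 for Timp3 and 0.316 for Mrc2.

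Laminins, the other network of the basement membrane, split by chain. Of 16 listed and tested partner genes, 4 were higher and 1 lower in vehicle against control, beside 4.92% and 4.71% of all genes (median log2 fold change of the list 0.12). Lama5 rose by 1.09 (adjusted p 0.00066) and Lamb3 by 1.62 (0.00375), while Lama2, from 17.8 to 8.47 CPM, fell by 1.07 (0.000619). After T3+T4 Lama2 rose by 0.66 (0.0119), to 13.4 CPM, and Lamb3 fell by 1.34 (0.0038), Nid1, the nidogen that bridges laminin and collagen IV, by 0.43 (0.0052) and Lama5 by 0.58 (0.0216, up to 0.114 without vehicle animal 67 or T3+T4 animal 85), with a list median of -0.19. After T3 Lamb3 alone fell (log2 fold change -1.44, adjusted p 0.00816, 0.0649 without vehicle animal 55, 0.0855 without the raised libraries, median -0.10). Without the raised libraries the changes after T3+T4 of Lama2 (adjusted p 0.214), Nid1 (0.0971) and Lama5 (0.0525) were not called, and that of Lamb3 was (0.033).

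Of 15 genes of TGF-beta signalling, which drives collagen synthesis in fibrosis, 0 were called in vehicle against control, beside 9.63% of all genes. Of the 15, 6 had an unadjusted p under 0.05, beside 4364 of 17057 genes (median log2 fold change of the list 0.07). After T3 1 was lower (Smad3, -0.43, adjusted p 0.0458, up to 0.102 with 1 library left out, 0.173 without the raised libraries). The receptor gene Tgfbr2 fell by 0.37 after T3+T4 (adjusted p 0.00651, 0.111 without the raised libraries). The list medians after T3 and after T3+T4 were -0.01 and -0.09. In T4 against vehicle edgeR called 0 genes of these 5 lists, beside 0.41% of all genes. There 5, 2, 1, 0 and 1 genes of synthesis, breakdown, receptors, basement membrane and TGF-beta signalling had an unadjusted p under 0.05, beside 2167 of 17057 genes.

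Markers of the cells that make collagen were followed too. In vehicle against control the portal fibroblast marker Lum (log2 -1.06) moved further than the called collagens Col3a1 (-0.64), Col13a1 (0.53) and Col4a5 (0.41). It moved less than the called Col4a3 (-3.41), Col4a4 (-2.08), Col5a3 (2.41) and Col25a1 (2.32). Beside the marker counts below, 4.92% of all genes were called higher and 4.71% lower in vehicle against control. After T3 these shares were 3.53% and 3.24%, and after T3+T4 7.33% and 8.45%. Of 15 stellate and fibroblast markers 1 was lower in vehicle against control (Lrat, log2 -0.59, adjusted p 0.0429, up to 0.125 with 1 library left out, 0.148 without the raised libraries), 0 were called after T3 and 1 was lower after T3+T4 (Dcn, -0.25, adjusted p 0.000937). Their summed level was 1526 to 1637 CPM in control, 1262 to 1596 in vehicle, 1255 to 1671 after T4, 1197 to 1619 after T3 and 1207 to 1523 after T3+T4, with no marker at 0. Of 10 portal fibroblast markers, Lum (-1.06, adjusted p 0.00066) and Eln (-0.59, 0.0252, up to 0.0726 with 1 library left out) were lower and Fbln2 (0.83, 0.012) higher in vehicle against control. After T3+T4 Lum (0.73, 0.00525), Eln (0.61, 0.0088) and Mfap4 (1.07, 0.0209, up to 0.0701 with 1 library left out) were higher, and 0 were lower. None of these 3 was called without the raised libraries (adjusted p 0.164, 0.163 and 0.259), nor were Eln (0.227) and Fbln2 (0.113) in vehicle against control, while Lum was (0.0286). Their summed level was 201 to 255 CPM in control, 153 to 189 in vehicle, 130 to 264 after T4, 122 to 227 after T3 and 178 to 264 after T3+T4, with none at 0. Of 4 tested of 5 mesothelial markers 2 were higher in vehicle against control (Wt1 and Msln). Leaving out 1 library ended the call of Wt1 for 0 of 10 libraries and of Msln for 3 of 10. Msln was not called without the raised libraries (adjusted p 0.0627), and Wt1 was (0.0271). The summed level of the mesothelial markers was 23.5 to 35.5 CPM in control and 42.8 to 54.0 in vehicle. Of 10 endothelial markers Stab1 and Kdr were higher in vehicle than in control and lower after T3+T4 than in vehicle, with summed levels of 1084 to 1253, 1077 to 1329 and 941 to 1173 CPM in control, vehicle and T3+T4. Leaving out 1 library ended the call of Stab1 for 5 of 10 libraries in vehicle against control and 1 of 12 after T3+T4. That of Kdr ended for 0 of 10 and 4 of 12. Without the raised libraries neither was called after T3+T4 (adjusted p 0.111 and 0.0636). Of 7 Kupffer cell markers 1 was lower in vehicle against control (Clec4f) and 1 higher after T3 and after T3+T4 (Timd4). Leaving out 1 library ended the call of Clec4f for 6 of 10 libraries. That of Timd4 ended for 8 of 11 libraries after T3 and 8 of 12 after T3+T4. None of these calls was made without the raised libraries (adjusted p 0.145, 0.112 and 0.211). Cholangiocyte markers (0 of 6 tested) were not called in the 4 comparisons. The part of these cell markers in the changes of the collagen genes was not tested.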

How the data were processed

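RNA sequencing of 31 livers was analysed from 1 deposited table of whole-number counts per gene, and the authors' values carry no sign of normalization. No value is under 1 and 50.1% equal 1, a sign that 1 was added to every count at an unstated step. The submitters' processing notes name bcl2fastq, Trimmomatic, BWA 0.7.10 and DESeq, and give the human build GRCh38, whereas column names say mm10. The counting tool and its use of strand are not given in the sources used here. The library kit marks strand, per the labels' protocols. Positions and exonic lengths came from GENCODE M21, which holds 97.3% of the gene IDs. Symbols came from the deposited table. Totals ran from 4383769 to 7158919 counts, which leaves a gene at 2 CPM with few reads.

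The deposited counts were scaled by TMM factors, and the 17057 genes kept by filterByExpr went into edgeR's quasi-likelihood test (edgeR 4.0.16 on limma 3.58.1 and R 4.3.3). The fit held all libraries and 1 mean for each group, and p-values were adjusted by Benjamini-Hochberg and called under 0.05. All levels are CPM after TMM scaling, and folds and intervals (95%) are those of the fit. The p-values measure the spread between pups. The 11 contrasts were vehicle against control, each hormone group against vehicle and against control, the hormone groups against each other, and the interaction. The members, lists and tests were chosen with earlier results of these data known. Named were Col4a3 and Col4a4, every called member of the main comparisons, the 6 members highest per exonic base, the highest member of each class, and up to 3 called genes of each other list. Other genes named were chosen after their values were seen, and some listed genes are not reported here.

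Alternatives were median-of-ratios factors, library total scaling, no filter, a minimum mean of 5 CPM, the compared groups only, subtraction of the added 1, covariates for library total and for sex, animals 54 to 85 only, omitting the libraries whose acinar or muscle genes averaged 5 CPM or more, DESeq2 1.42.0, and leaving out each library. Omission of the 4 animals with a labelled sex that differed from expression, and every alternative for comparisons between hormone groups or with control other than the main ones, were added after seeing the data. The tests were checked on simulated data.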

Additional observations from a re-analysis of the deposited data

Results flagged for a closer look

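Of the 39 described collagen genes, the 18 named by the rule above were checked, and the others were not. The check looked, in groups of 4 to 10 livers, for a highest or lowest liver set apart from the others. Its gap to its neighbour had to be above Dixon's 95% critical value for the group's size. Of 90 groups tested, 3 had such a liver, and chance gives about 1 in 20. Col13a1 was at 19.1 CPM in control animal 47, with the other control livers at 11.9 to 13.6 CPM. Col4a3 was at 5.3 CPM in T4 animal 40, with the other T4 livers at 1.84 to 3.15 CPM. Col28a1, a collagen below the test's filter, was at 1.4 CPM in T4 animal 54, with the other T4 livers at 0.176 to 0.482 CPM.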

How the results depend on the processing

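Col4a3, Col4a4 and Col18a1 were called after T3+T4 against vehicle in all 24 other settings, and T4 against vehicle called 0 collagen genes in all 25. Few genes of any kind were called in T4 against vehicle. Over all genes the counts in these settings ran from 1 of 16859 (without the raised libraries) to 237 of 17057 (DESeq2). A count of 0 collagen genes there says little about the collagens. Within animals 54 to 85, T3 against vehicle fell from 6 called collagen genes to 0 and T3+T4 against vehicle from 8 to 4. Over all genes tested these calls fell from 1155 to 167 and from 2692 to 794. Comparisons with control there rest on 1 control liver. Without libraries with raised acinar or muscle genes the counts of called collagen genes were 4 in vehicle against control, 0 after T3 and 3 after T3+T4 against vehicle. They were 2 in T3+T4 against T4 (main count 5) and 0 in T3 against control. Of 16859 genes tested there, 689 were called in vehicle against control, 83 after T3 and 685 after T3+T4 against vehicle. For the other settings, counts over all genes were computed only for vehicle against control, each hormone group against vehicle, and T4 against T3. T3 against vehicle called 3 with the compared groups only and 3 with a sex covariate, beside 275 and 618 genes over all. T3 against control called 0 with the compared groups only and 0 with a library total covariate. T3+T4 against T3, at 0, called 1 without the low-count filter, 1 without the animals whose labelled sex differed, 2 with a library total covariate and 2 with DESeq2. DESeq2 called 2 in T4 against T3, beside 234 of all genes (94 with edgeR), and 1 in T3+T4 against control.

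Leaving out 1 library at a time gave 4 to 8 calls in vehicle against control (4 without control animal 50 or vehicle animal 38), 0 to 0 in T4 against vehicle, 3 to 6 in T3 against vehicle (3 without vehicle animals 37 or 38 or T3 animal 60) and 7 to 9 in T3+T4 against vehicle. It gave 0 to 1 in T4 against T3, 4 to 7 in T3+T4 against T4, 0 to 2 in T3+T4 against T3, 2 to 4 in T4 against control (2 without control animal 49), 0 to 1 in T3 against control and 0 to 0 in T3+T4 against control. Over all genes, vehicle against control called 935 without control animal 50 and 1011 without vehicle animal 38. T3 against vehicle called 622, 744 and 792 genes without vehicle animals 37 and 38 and T3 animal 60. Alb changed sign after T3+T4 with a library total covariate (log2 0.0109, adjusted p 0.902). The causes of these differences were not tested, beyond the fewer libraries of some fits.

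Scaling by library total alone moved the split of all calls, higher to lower, from 1251 and 1441 to 1670 and 1105 after T3+T4, from 602 and 553 to 801 and 408 after T3, and from 36 and 34 to 58 and 26 after T4. Without the low-count filter the split was 1806 and 726 after T3+T4 and 617 and 263 after T3. The correlations of the collagen IV pairs did not change their call under library total scaling or subtraction of the added 1. No paired analysis was possible because the groups share no animal numbers. Low counts limit Col4a3 and Col4a4 in vehicle and the 6 untested members.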
